A study of Homo sapiens with 4 samples.

Results

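The EGR, NR4A and IER early genes are a set of 10 genes, EGR1, EGR2, EGR3, NR4A1, NR4A2, NR4A3, IER2, IER3, IER5 and SRF, out of 64252 genes in the count table. They were chosen by name as early response genes, with the difference between dBET1 and DMSO in these same libraries already known, so that their values in that comparison are given below as a description and without p-values. The series holds 4 RNA-seq libraries of cells labelled NB4, an acute promyelocytic leukemia cell line with the PML-RARa fusion. Of these, 2 came from cells treated with 8 μM dBET1 for 24 h, and 2 from cells given the same volume of DMSO, its solvent, for 24 h. dBET1 is a PROTAC that joins a ligand of the BET bromodomain proteins to a CRBN ligand, which brings them to a ubiquitin ligase. All libraries are of 1 cell line and 1 time point, and nothing in the labels says whether the replicates were separate cultures, so the errors below measure only the spread between these libraries.

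Early response genes are transcribed within minutes of a stimulus from pre-existing factors, without new protein synthesis. Growth factor and stress signals reach many of them through the RAS-ERK cascade, whose kinases phosphorylate ternary complex factors such as ELK1 that sit beside the serum response factor SRF on a short AT-rich element, the CArG box. Cyclic AMP acts on others through CREB at the cAMP response element (CRE). The EGR proteins are zinc finger transcription factors, the NR4A proteins are orphan nuclear receptors, and the IER genes code for short regulators of growth, survival and the heat shock response. In myeloid cells EGR1 and EGR2 are known for their part in the monocyte and macrophage fate.

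The libraries summed to between 28019956 and 34685645 counts. The labelled cell type was checked against marker genes. Over the 5 neutrophil granule genes (ELANE, CTSG, MPO, PRTN3 and AZU1) the sums were 17 and 15 counts under DMSO and 55 and 25 under dBET1, with ELANE and CTSG at 0 throughout. The 9 erythroid markers, among them GATA1 and the globin genes, instead summed to 5250 and 6390 CPM (counts after scaling by normalized library size) with DMSO and to 3150 and 3100 CPM with dBET1. The 5 myeloid markers (CD33, ITGAM, CSF3R, CEBPE and LYZ) summed to 32.0 and 32.4 CPM with DMSO and to 29.7 and 28.8 with dBET1. Most of this came from LYZ and CD33, at 17.9 and 10.9 CPM with DMSO. The neutrophil granule markers of the labelled cells were thus close to absent. The erythroid markers summed to far more CPM than the 5 myeloid markers, of which some were present. These marker levels go against the NB4 label, and the cells are called by that label only. The share of counts on mitochondrial genes was 4.67% and 4.91% with DMSO and 7.81% and 7.38% with dBET1. The 3 monocyte markers CD14, CSF1R and FCGR3A summed to 0.644 and 0.640 CPM with DMSO and to 1.67 and 1.97 CPM with dBET1, with FCGR3A at 0 in all libraries but dBET1 replicate 1. Whether these shifts between the groups have a part in the values below was not tested. In bulk RNA, fewer cells with a transcript and less transcript per cell cannot be told apart.

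RefSeq promoter windows (GRCh38.p14), from 250 bases before to 50 bases after a transcript start, were found for 7 of the 10 genes, in 11 windows. EGR3, NR4A2 and IER3 had no entry. The CArG box was matched in the windows of EGR1, EGR2 and SRF, and in 1.29% of all 35116 windows. It is CC and GG on either side of 6 bases that are A or T, and it is the element that SRF itself binds, which is why the windows of these genes are shown, with that of NR4A3 for its CRE cores. Each is the stretch of 150 bases just before the transcript start. Capitals mark CArG boxes and the CRE core TGACG, on either strand. The windows are chr5:138465329-138465478 on the forward strand for EGR1, chr10:62816367-62816516 on the reverse strand for EGR2, chr6:43171119-43171268 on the forward strand for SRF and chr9:99821735-99821884 on the forward strand for NR4A3.
EGR1: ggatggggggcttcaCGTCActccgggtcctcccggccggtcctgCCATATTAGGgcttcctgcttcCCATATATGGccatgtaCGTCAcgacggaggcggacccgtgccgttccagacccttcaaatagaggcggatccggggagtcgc
EGR2: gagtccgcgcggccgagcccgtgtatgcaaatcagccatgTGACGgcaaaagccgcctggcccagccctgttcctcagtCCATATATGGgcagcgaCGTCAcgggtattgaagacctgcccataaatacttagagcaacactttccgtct
SRF: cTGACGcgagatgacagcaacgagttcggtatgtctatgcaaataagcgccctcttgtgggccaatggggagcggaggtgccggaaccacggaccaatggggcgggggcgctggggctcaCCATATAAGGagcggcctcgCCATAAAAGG
NR4A3: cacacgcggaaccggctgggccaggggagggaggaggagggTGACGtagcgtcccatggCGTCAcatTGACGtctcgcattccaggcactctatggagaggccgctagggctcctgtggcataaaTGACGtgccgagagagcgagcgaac

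The EGR1 window held 2 CArG boxes, from -105 to -96 and from -83 to -74 relative to the start, with a CRE core on each side. EGR2 held 1 CArG box, from -71 to -62, also between CRE cores, at the 1 of its 3 RefSeq starts that is the GENCODE canonical start. SRF held 2 CArG boxes, from -30 to -21 and from -10 to -1. NR4A3 held 4 CRE cores and no CArG box. The CRE core was also matched once in IER2, and 24.6% of all windows hold it. The full CRE TGACGTCA (1.85% of all windows), the AP-1 site TGANTCA (7.71%) and the heat shock element GAANNTTCNNGAA (0.490%) were matched in none of the 11 windows. The EGR site GCGNGGGCG (9.43% of all windows) was matched once each in EGR1, EGR2 and SRF. The GC box GGGCGG (45.0% of all windows) was matched in 5 genes, with 4 matches in IER2. The TATA box TATAAA (11.5%) was matched in SRF after its start, and the NF-kB site (11.3%) in EGR2 and SRF. No motif of this list was matched in IER5 or at the first start of NR4A1, and neither NR4A1 window lies at that gene's GENCODE canonical start. In SRF the GC box and the EGR site overlap. A match is a match of letters and does not show binding, and the counts do not show which start was used.

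**Figure D1:**
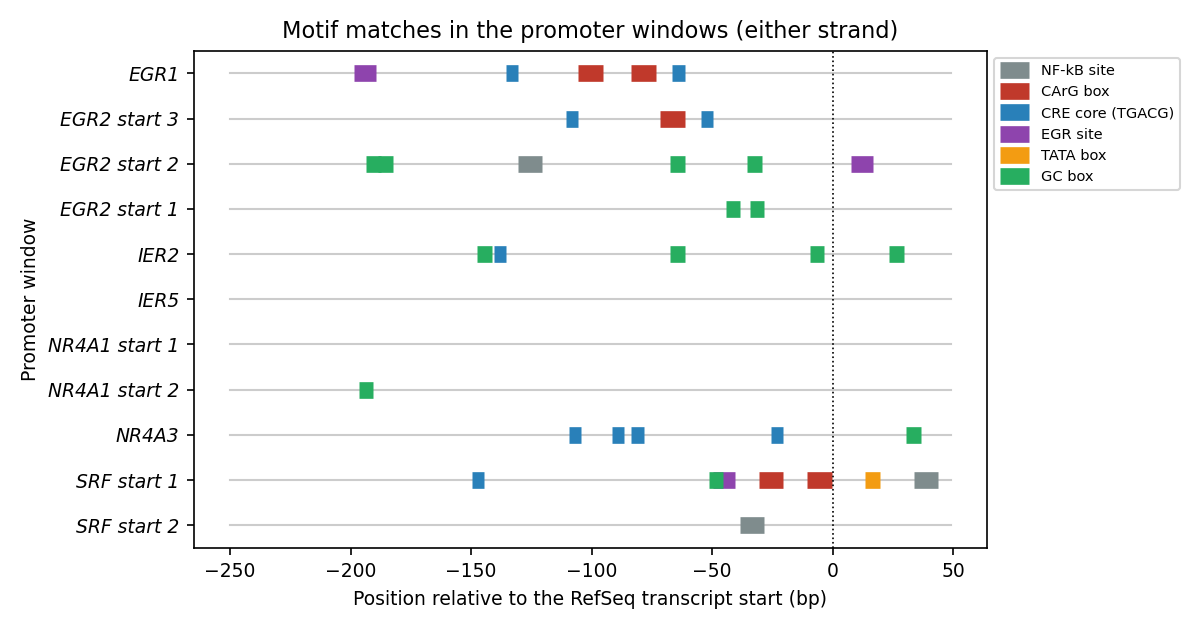
Motif matches on either strand in the 11 RefSeq promoter windows of 7 early genes, by position in bp relative to the transcript start (dotted line); starts of a gene are numbered from the most upstream. CArG boxes lie only in the windows of EGR1, EGR2 (start 3) and SRF (start 1), and NR4A3 has 4 CRE cores.

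Of the 10 genes, 9 passed the filter on low counts. EGR2 and EGR3 passed it only through the dBET1 libraries, so they had to be higher there once they passed, and NR4A3 did not pass. With an adjusted p below 0.05 in the edgeR quasi-likelihood fit taken as passing, 8 of the 9 were higher after dBET1 and 1, SRF, was lower. Over all 17971 genes tested, 28.0% were higher and 27.6% were lower by that rule. With the further limit of a log2 fold change above 1, 5 of the 9 were higher (EGR1, EGR2, EGR3, NR4A1 and IER3) against 16.9% of all genes, and 0 were lower against 8.54%. Since the genes were chosen with this comparison known, these counts only describe the set, and nothing is read from them. The count of 8 fell to 5 without dBET1 replicate 2, in which EGR2, IER3 and NR4A2 no longer passed. EGR2 also did not pass without DMSO replicate 1, and NR4A2 did not pass without DMSO replicate 2.

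Among the EGR genes, EGR1 carried nearly all of the RNA. EGR1 (chromosome 5 of hg38, 138465479 to 138469303, forward strand, 2 exons) was counted 959 and 883 times under DMSO against 11130 and 10629 under dBET1. Both dBET1 libraries lay far above both DMSO libraries, and replicates differed little. EGR1 rose from 30.4 ± 1.44 to 360 ± 16.0 CPM (SD, n = 2 each), for a log2 fold change of 3.56 with a standard error of 0.0855. It stayed between 3.49 and 3.59 when single libraries were left out. The median log2 fold change of the tested genes in the same abundance decile was -0.41, so EGR1 moved against the median of that decile. The deciles were set by the mean level over all 4 libraries, so the rise of EGR1 itself helped to place it there. By level per kilobase of exon EGR1 went from rank 4634 to rank 255 among all genes of the table with an annotation.

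EGR2 and EGR3 were at or near 0 with DMSO. EGR2, which is needed for Schwann cell myelination and hindbrain patterning (chromosome 10 of hg38, 62811996 to 62819167, reverse strand, 2 exons), was counted 0 and 4 times under DMSO against 15 and 27 under dBET1. The ratio of its summed, normalized counts was 10.5 (95% exact interval 3.82 to 40.4, for counting error only). Its log2 fold change of 3.30 (standard error 0.909) became 2.22 without DMSO replicate 1. Without DMSO replicate 2 the remaining DMSO library is at 0 and no fold is given. EGR3 (chromosome 8 of hg38, 22687659 to 22693480, reverse strand, 2 exons), which is also a direct target of early signals in lymphocytes and muscle spindles, had 0 counts in both DMSO libraries and 113 and 78 counts with dBET1. Set against a floor of 3 counts over the DMSO group, EGR3 was at least 63.9-fold higher after dBET1. Its level with dBET1, 3.16 ± 0.856 CPM (SD, n = 2), was still low beside EGR1. Per kilobase of exon, EGR1 made up at least 99.3% of the summed EGR1, EGR2 and EGR3 level in every library. The remaining gene of the family, EGR4, had 0 counts in both DMSO libraries and 4 and 2 counts with dBET1, too few for the test.

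**Figure D2:**
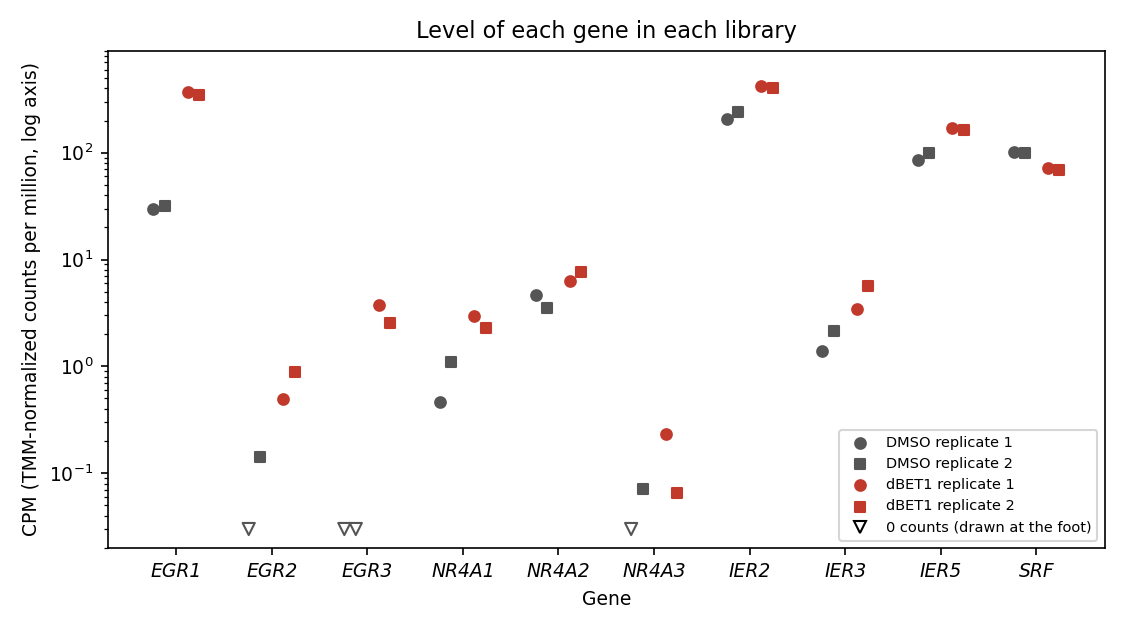
CPM (log axis) of each gene in each of the 4 libraries, with DMSO in grey and dBET1 in red, circles for replicate 1 and squares for replicate 2; triangles at the foot mark 0 counts. EGR1 moves from about 30 to about 360 CPM, EGR3 is at 0 with DMSO, and SRF is the gene whose dBET1 values, 72.1 and 68.6 CPM, lie below its DMSO values.

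The NR4A receptors act without a known natural ligand, as monomers, homodimers or, for NR4A1 and NR4A2, with the retinoid X receptors. All of them were low in these libraries. NR4A2 (chromosome 2 of hg38, 156324437 to 156342348, reverse strand, 8 exons), known as a factor of dopaminergic neurons, was the most abundant and was counted 152 and 99 times under DMSO against 187 and 234 under dBET1. The groups did not overlap, but the gap between them, from 4.66 to 6.23 CPM, was close in size to the differences between replicates. Its log2 fold change was 0.76 (standard error 0.234), and 0.55 to 0.95 when single libraries were left out. NR4A1 (chromosome 12 of hg38, 52022832 to 52059507, forward strand, 7 exons), also called Nur77 and known in T cells as a mark of receptor signalling, was counted 15 and 31 times under DMSO against 89 and 70 under dBET1. The DMSO replicates differed by 1.26 on the log2 scale, more than the dBET1 replicates. NR4A1 went from 0.781 ± 0.455 to 2.63 ± 0.475 CPM (SD, n = 2 each), for a log2 fold change of 1.76 (standard error 0.433) that became 1.22 without DMSO replicate 1 and 2.47 without DMSO replicate 2. Its level with dBET1 still ranked 15918 among all genes per kilobase of exon. NR4A3 (chromosome 9 of hg38, 99821855 to 99866891, forward strand, 8 exons) was counted 0 and 2 times under DMSO against 7 and 2 under dBET1. These libraries overlap. The ratio of summed, normalized counts was 4.51, with a 95% exact interval of 0.934 to 42.9 for counting error only. The antisense gene STX17-DT overlaps NR4A3 and had 3 to 12 counts in a library, and the strand setting of the counting is not given in the sources used here.

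IER2 was the most abundant of the 10 genes per kilobase of exon in both groups. IER2 (chromosome 19 of hg38, 13150411 to 13154911, forward strand, 2 exons), a nuclear protein induced by growth factors, was counted 6757 and 6767 times under DMSO against 12665 and 12401 under dBET1. Its level went from 224 ± 23.8 to 414 ± 11.1 CPM (SD, n = 2 each), for a log2 fold change of 0.89 (standard error 0.0883). IER5 (chromosome 1 of hg38, 181088700 to 181092900, forward strand, 1 exon), which acts on heat shock factor HSF1 together with the phosphatase PP2A, was counted 2816 and 2798 times under DMSO against 5153 and 4936 under dBET1. Its level went from 92.9 ± 9.38 to 167 ± 7.07 CPM (SD, n = 2 each), for a log2 fold change of 0.84 (standard error 0.0922). IER2 and IER5 moved by nearly the same amount, and each stayed just under the limit of 1 in the reported fit. With total counts in place of TMM factors both passed it, at 1.10 and 1.05, while that scaling shifted the median over all genes, from 0.048 to 0.26. Genes in their abundance decile had a median of -0.41.

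IER3 was the lowest of the IER genes. IER3 (chromosome 6 of hg38, 30743199 to 30744548, reverse strand, 2 exons), also called IEX-1 and known as a regulator of apoptosis under NF-kB and p53, was counted 45 and 60 times under DMSO against 104 and 172 under dBET1. The dBET1 values of 3.47 and 5.63 CPM both lay above the DMSO values of 1.38 and 2.14 CPM, and the replicates of each group differed. Its log2 fold change was 1.38 (standard error 0.344), and 0.97 without dBET1 replicate 2. The antisense gene IER3-AS1 overlaps IER3 and had 2 to 9 counts in a library. IER2 made up 75.6% to 75.9% of the summed IER level per kilobase of exon in each of the 4 libraries. The plain CPM of the 3 IER genes, not divided by length, summed to 319 ± 33.7 with DMSO and to 585 ± 16.7 with dBET1 (SD, n = 2 each).

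SRF was the gene of the set that was lower. SRF (chromosome 6 of hg38, 43171269 to 43181506, forward strand, 7 exons), the MADS-box factor that binds the CArG boxes shown above, was counted 3285 and 2806 times under DMSO against 2164 and 2094 under dBET1. After normalization the DMSO libraries were nearly equal, at 101 and 99.9 CPM, and both dBET1 libraries lay below them, at 72.1 and 68.6 CPM. The log2 fold change was -0.51 (standard error 0.0795), a ratio of 0.702. It was -0.55 to -0.49 when single libraries were left out, and -0.30 with total counts only. The median of the tested genes in its abundance decile was -0.32, which leaves SRF 0.19 below genes at its level.

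**Figure D3:**
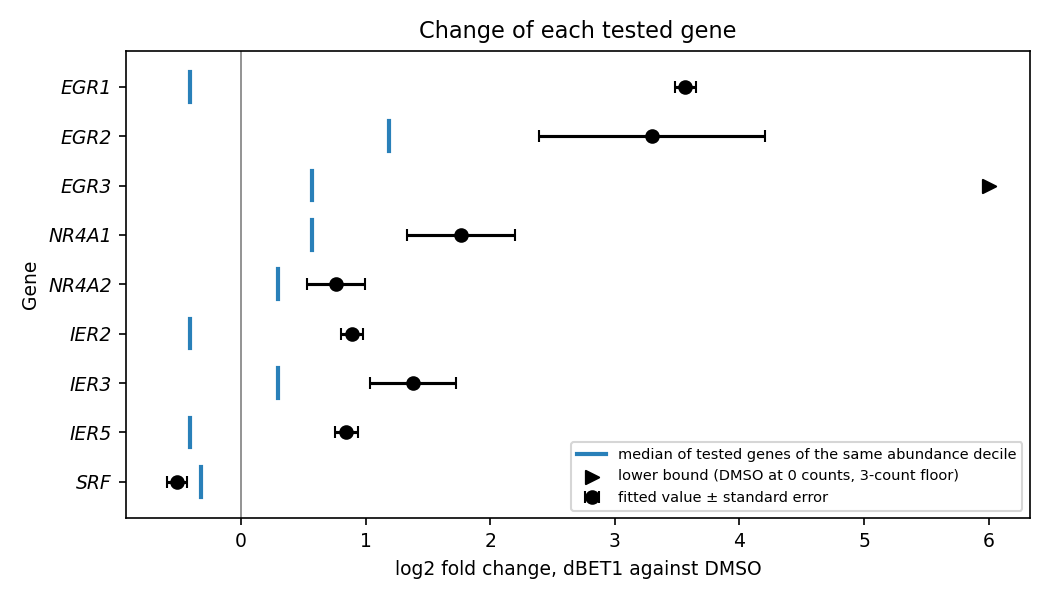
Log2 fold change (dBET1 against DMSO) of the 9 tested genes, with points for fitted values and bars for their standard errors; the arrowhead for EGR3 is a lower bound, and blue ticks give the median of tested genes in the same abundance decile. EGR1 at 3.56 lies far from its tick at -0.41, while SRF at -0.51 lies close to its tick at -0.32.

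The order of the levels changed between the groups. Per kilobase of exon the order with DMSO was IER2 (72.7 ± 7.75 CPM per kb), SRF (23.7 ± 0.137), IER5 (22.1 ± 2.23), EGR1 (9.69 ± 0.458), IER3 (1.30 ± 0.396), NR4A2 (0.995 ± 0.195) and NR4A1 (0.107 ± 0.0624), followed by EGR2, NR4A3 and EGR3 (SD, n = 2). SRF and IER5 lay within their spread of each other, as did IER3 and NR4A2. With dBET1 the order was IER2 (134 ± 3.62 CPM per kb), EGR1 (115 ± 5.11), IER5 (39.7 ± 1.68), SRF (16.6 ± 0.586), IER3 (3.37 ± 1.14) and NR4A2 (1.69 ± 0.247), with EGR3 (0.628 ± 0.170), NR4A1 (0.360 ± 0.0652), EGR2 and NR4A3 after them (SD, n = 2). EGR1 moved from place 4 to place 2, and EGR3 moved past NR4A1, EGR2 and NR4A3. The longest transcript in place of all exons gave the same order in both groups.

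The median log2 fold change over the 9 tested genes was 1.38, also with EGR3 at its bound, against 0.048 over all tested genes. Without EGR2 and EGR3, which passed the filter only through dBET1, the median over the other 7 was 0.89. Low genes tended upward and abundant genes downward in these libraries as a whole. In the decile of lowest abundance, which holds EGR2, the median was 1.19 with 37.5% of genes higher, and in the decile of highest abundance, which holds EGR1, IER2 and IER5, 13.6% of genes were higher. The differences from the median of their own decile were 3.98 for EGR1, 1.30 for IER2 and 1.26 for IER5 on the log2 scale, against 0.46 for NR4A2. The value for EGR1 depends on a decile that its own rise helped to set. Of the 10 genes, 6 span less than 10 kb of the genome. Among all tested protein-coding genes of that span 24.1% were higher and 38.7% lower, and among longer ones 28.1% were higher and 33.0% lower.

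The gene lists from here on were written from general knowledge with earlier results of these data known. Their counts and adjusted p-values are therefore a description and not independent support. Other early response genes, a list of 39, mostly rose too. Of the 35 tested, 24 were higher and 4 lower by the same edgeR rule, against the background of 28.0% and 27.6%, with a median log2 fold change of 1.13. The AP-1 genes JUN and FOS rose by a log2 fold change of 2.91 ± 0.0999 (standard error; edgeR adjusted p = 2.66e-06) and 3.36 (standard error 0.173, adjusted p = 1.14e-05 from edgeR). ARC, known from neurons, where it acts at the synapse and is itself an EGR1 target, rose by 3.97 (standard error 0.397, adjusted p = 0.00013 from edgeR), from 23 and 7 counts to 232 and 235 counts. KLF2, a zinc finger factor of quiescent lymphocytes and endothelium, rose by 3.24 and BTG2, an antiproliferative gene, by 2.87 on the same scale. The 4 lower genes were FOSL1 (-1.60), CCN1 (-1.05), SNAI1 (-0.76) and MAFK (-0.38). With total counts only, 27 were higher and 1 lower. Without dBET1 replicate 1, 2 genes were lower in place of 4.

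The NAB corepressors and relatives of the EGR and IER genes were counted together. NAB2, a corepressor of EGR1 and EGR2 that is itself induced by EGR factors, rose from 37.1 ± 3.35 to 65.2 ± 4.01 CPM (SD, n = 2 each), for a log2 fold change of 0.82 ± 0.102 (standard error; edgeR adjusted p = 0.000392). NAB1, the related corepressor, rose by 0.40 (adjusted p = 0.0117 from edgeR), and IER5L, the relative of IER5, by 0.75 (adjusted p = 0.0429 from edgeR). WT1, a zinc finger factor whose fingers resemble those of the EGR proteins, fell from 48.6 ± 1.62 to 24.6 ± 1.67 CPM (SD, n = 2 each), for a log2 fold change of -0.98 (adjusted p = 0.000152 from edgeR). Of these 4 tested genes 3 were thus higher (75%, against 28.0% of all tested genes) and 1 lower (25%, against 27.6%). With DESeq2 or with the replicate block 2 were higher, and with no filter on low counts 1 was higher.

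Around SRF, its cofactors and its cytoskeletal targets were counted. Of the 5 cofactor genes, 1 was higher (20%, against 28.0% of all tested genes) and 0 lower (0%, against 27.6%). The higher one was the ternary complex factor ELK4, at a log2 fold change of 0.45 ± 0.0926 (standard error; edgeR adjusted p = 0.00421). ELK1 stood at -0.05 (standard error 0.0833), ELK3 at 0.34, and the actin-regulated coactivators MRTFA and MRTFB at 0.19 and 0.41, none of which passed the test. With total counts only, 4 of the 5 were higher. Without dBET1 replicate 1 no cofactor passed, and 2 did without DMSO replicate 1. Of the 16 tested cytoskeletal targets, 5 were higher (31.2%, near the 28.0% of all tested genes) and 7 lower (43.8%, against 27.6%) by edgeR. The lower genes ACTB, FLNA, CFL1, WDR1 and CNN2 were abundant, from 210 CPM (CNN2) to 4525 CPM (ACTB) with DMSO. The lower genes CCN1 and CNN1 were not, at 2.53 and 9.4 CPM. In abundance deciles 9 and 10, 54.1% and 62.2% of tested genes were lower. With total counts only, 6 were higher and 5 lower. The cytoplasmic actin genes ACTB and ACTG1 moved apart. ACTB fell by 0.46 on the log2 scale (standard error 0.0750, adjusted p = 0.00151 from edgeR) and ACTG1 rose by 0.49 (standard error 0.0657, adjusted p = 0.000561 from edgeR). The actin-binding genes CNN2 and CFL1 fell, with log2 fold changes of -1.23 and -0.62, while MYH9, the heavy chain of non-muscle myosin, rose by 0.58 and TAGLN by 1.80. Without dBET1 replicate 1, 4 targets were lower in place of 7.

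**Figure D4:**
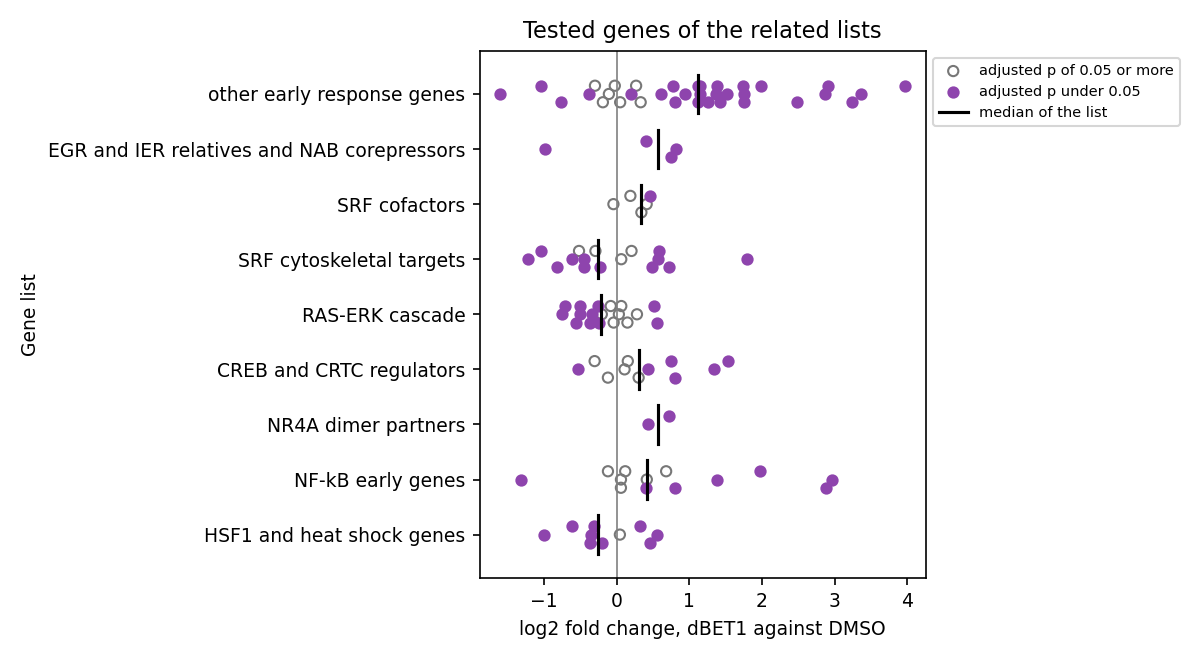
Log2 fold change (dBET1 against DMSO) of each tested gene of 9 related lists; filled points have an adjusted p under 0.05 from edgeR, open points do not, and black bars are list medians. The other early response genes have a median of 1.13, while the RAS-ERK cascade (-0.22) and the SRF cytoskeletal targets (-0.26) have medians below 0. All tested genes of abundance deciles 8 and 9 have medians of -0.19 and -0.32.

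The RAS-ERK cascade, which signals to the early genes, held more lower than higher genes. Of its 18 tested genes, 2 were higher (11.1%, against 28.0% of all tested genes), 9 lower (50%, against 27.6%) and 7 did not pass. The lower genes ranged from 16.6 CPM (HRAS) to 209 CPM (GRB2) with DMSO. In abundance deciles 8 and 9, 44.2% and 54.1% of tested genes were lower. The higher genes were BRAF, at 0.56 (adjusted p = 0.0063 from edgeR), and SOS2, at 0.51 (adjusted p = 0.0206 from edgeR). Among the lower genes were HRAS at -0.76 (adjusted p = 0.00747 from edgeR), MAP2K1, which codes for the kinase MEK1, at -0.51, and the ERK substrate kinase gene RPS6KA4 at -0.71. MAPK3, which codes for ERK1, had a log2 fold change of -0.04 (standard error 0.137) and did not pass. With total counts only, 4 were higher and 4 lower, but that scaling shifted the median over all genes from 0.048 to 0.26. The number of lower genes thus depended on the scaling. It also shrank to 5 lower genes without dBET1 replicate 1 or without dBET1 replicate 2, while 4 were higher without DMSO replicate 1 and 1 without each of the other libraries. RNA levels do not show the activity of the kinases.

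Of the 11 CREB and CRTC regulators, 5 were higher (45.5%, against 28.0% of all tested genes) and 1 lower (9.09%, against 27.6%). The coactivator CRTC1 rose from 9.80 ± 0.475 to 24.9 ± 1.28 CPM (SD, n = 2 each), for a log2 fold change of 1.34 (adjusted p = 0.000121 from edgeR). The genes of protein kinase A, which phosphorylates CREB, rose for the catalytic subunits PRKACB (1.54, adjusted p = 0.00105 from edgeR) and PRKACA (0.75) and for the regulatory subunit PRKAR1A (0.80). CREBBP was the fifth higher gene. ATF1 fell by 0.53, and CREB1 stood at -0.30 and did not pass. The count of 1 lower gene was 2 without DMSO replicate 2 and 0 without dBET1 replicate 1. Both tested dimer partners of the NR4A receptors rose, where 28.0% of all tested genes were higher. RXRA rose by 0.43 (adjusted p = 0.00818 from edgeR) and RXRB by 0.72 (adjusted p = 0.00692 from edgeR), while RXRG had 0 counts in every library. Leaving out dBET1 replicate 1 or dBET1 replicate 2 left 1 of these calls.

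Of the 13 tested NF-kB early genes, the class to which IER3 belongs, 6 were higher (46.2%, against 28.0% of all tested genes) and 1 lower (7.69%, against 27.6%). The alternative subunit gene RELB rose by 1.97 (standard error 0.303, adjusted p = 0.00108 from edgeR) and the survival gene BIRC3 by 2.97, from 8 and 9 counts to 68 and 67 counts. The inhibitor gene NFKBIB fell by 1.32 (adjusted p = 7.14e-05 from edgeR). NFKBIA, the inhibitor gene that NF-kB itself induces, stood at 0.06 (standard error 0.142) and TNFAIP3 at 0.68, and neither passed. TNF had at most 1 count in a library. Of the 10 heat shock genes set beside IER5, 3 were higher (30%, against 28.0% of all tested genes) and 6 lower (60%, against 27.6%). These genes were abundant, the lowest being BAG3 at 95.4 CPM with DMSO and 77.0 CPM with dBET1. In abundance deciles 9 and 10, 54.1% and 62.2% of tested genes were lower, so the share of lower genes is near that at their level. With total counts only, 4 were higher and 2 lower. HSPA1A, the inducible HSP70 gene, rose by 0.55 and shares near-identical sequence with HSPA1B, so reads of the pair can be split. HSPB1 (-1.01), HSP90AB1 (-0.62) and HSF1 (-0.36) fell. Without dBET1 replicate 1, 1 heat shock gene was higher and 2 were lower, and without dBET1 replicate 2, 3 were lower.

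Genes that lie beside the early genes were also counted, since position was not used to choose the set. Within 100 kb, 37 other genes were tested, of which 9 were higher, 10 lower and 18 did not pass, near the 28.0% and 27.6% of all genes. With total counts only, 15 were higher and 8 lower. The start of STX10 lies 28 bp from that of IER2, head to head on the opposite strand. STX10, a syntaxin of the Golgi, fell from 30.8 ± 2.53 to 18.8 ± 0.997 CPM (SD, n = 2 each), for a log2 fold change of -0.71 ± 0.119 (standard error; edgeR adjusted p = 0.00165), while IER2 stood at 0.89. CUL9, a cullin gene, begins 677 bp beyond the end of SRF on the same strand and rose from 20.6 ± 0.577 to 66.7 ± 2.07 CPM (SD, n = 2 each), for a log2 fold change of 1.70 ± 0.0929 (standard error; edgeR adjusted p = 1.33e-05), while SRF stood at -0.51. Near EGR1, REEP2 lies upstream with a gap of 18509 bp and rose by 3.11 (standard error 0.361, adjusted p = 0.000265 from edgeR), from 9 and 11 counts to 92 and 83 counts. Downstream of EGR1, ETF1 and HSPA9 fell, with log2 fold changes of -1.15 and -1.55. FLOT1, 466 bp from the end of IER3 on the same strand, stood at -0.25 and did not pass. The single tested neighbour of EGR2, ADO, stood at -0.06 (standard error 0.0967).

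**Figure D5:**
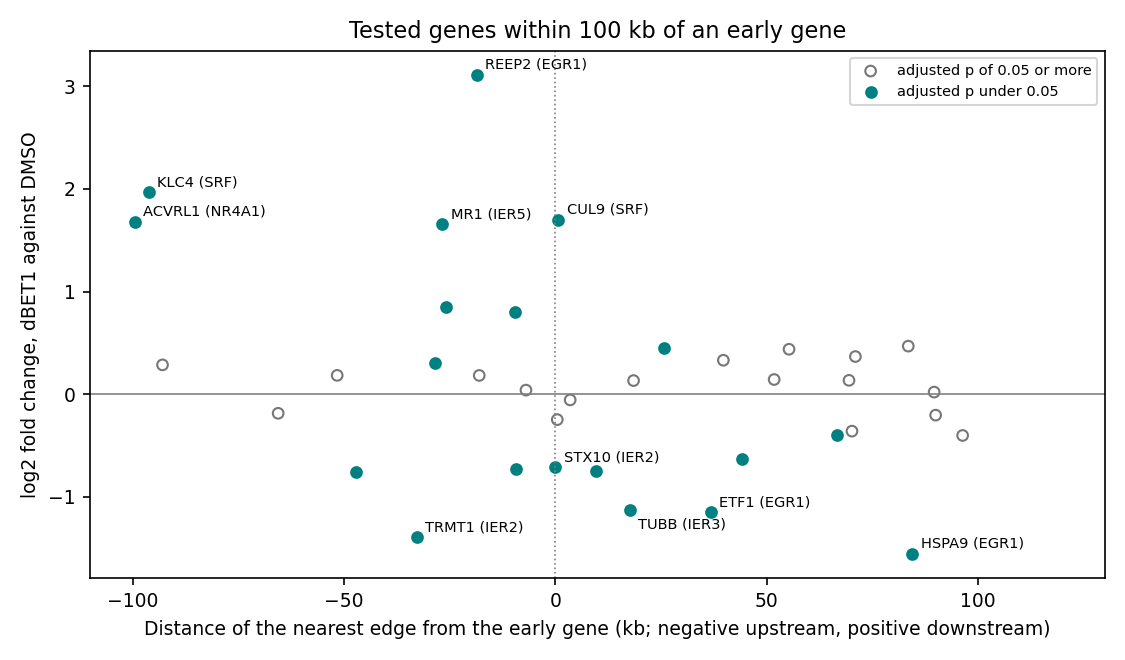
Log2 fold change of the 37 tested genes within 100 kb of an early gene against the distance in kb of their nearest edge from that gene (named in brackets); filled points have an adjusted p under 0.05 from edgeR. Next to 0 kb, CUL9 beside SRF is at 1.70 and STX10 beside IER2 at -0.71.

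Genes with the profile most like that of 4 early genes were found from the root mean square difference of log2 CPM, centred on the mean of each gene, over the 4 libraries, with a prior count of 2 added before the log. The nearest to EGR1 were CCDC200 (0.0534), ZSWIM4 (0.0599) and SPTAN1 (0.0743), the last the gene of alpha-II spectrin. CCDC200 had 0 counts in both DMSO libraries, so its place is set by the prior count and shows no likeness of change. Those nearest to NR4A1 were MAST4-AS1 (0.0199), DUX4L9 (0.0553) and KNOP1P5 (0.0764). FAM53A (0.0202), PLEKHA4 (0.0264) and ZNF530 (0.0288) were nearest to IER2, and SURF4 (0.00338), USP51 (0.00741) and MRPL32 (0.00982) to SRF. For SRF, 1320 named genes lay within 0.1 of its profile, against 7 for EGR1. The measure rests on 4 libraries in 2 groups and mostly ranks genes by the size of their change.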

How the data were processed

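RNA of 4 libraries was sequenced as paired-end reads. The authors aligned them to hg38 with HISAT2 2.2.0 (the version is in the submitters' processing notes), estimated abundances with StringTie and deposited whole-number counts per Ensembl gene, without normalization. The reads were 150 bp long. How abundances became counts, and the strand and read-length settings of that step, are not given in the sources used here, so counts divided by 2 were tried in case reads were counted 2 times. Samples were grouped by their titles, and columns by treatment, time and replicate. All columns were used, and 0 rows named no gene. Of 64252 identifiers, 56105 were found in GENCODE release 44 on hg38, which gave symbols, positions and exon lengths. Totals were 28019956 to 34685645 counts. Intervals and floors cover counting error only.

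Counts were analysed with edgeR 4.0.16 in R 4.3.3 (filterByExpr, TMM factors, quasi-likelihood test on the group alone, Benjamini-Hochberg adjustment over 17971 genes). Genes passed at an adjusted p under 0.05 alone. The counts said to use the fold limit also needed an absolute log2 fold change above 1, as in the study's methods, which used DESeq2. The standard error is the size of the log2 fold change divided by the square root of F. The biological coefficient of variation was 0.123. In 3 simulated data sets of dBET1 against DMSO (17705 to 17725 genes tested, 200 changed by 1.5 on the log2 scale) 99.8% of changed genes were called, with 6.33 false calls on average. The changed genes were drawn from well-counted genes, with the same dispersion for every gene. These rates thus do not cover genes with few counts, such as EGR2, EGR3 and NR4A1. Nor do they cover data in which many genes move, as here, where 28.0% were higher and 27.6% lower. Motifs were searched with Python 3.11.15 in RefSeq promoter windows.

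The members and gene lists were chosen with earlier results of these data known. Named genes are the members, listed genes, genes within 100 kb of a member, and the 3 genes most like EGR1, NR4A1, IER2 and SRF. The lists not detailed above are markers: 8 of 9 erythroid genes were lower, 1 of 5 myeloid genes (ITGAM) was higher and 1 (LYZ) lower, and 0 of 2 tested lymphoid genes passed. CCN1 and NFKBIZ stand in 2 lists each. Alternatives were DESeq2 1.42.0, its size factors, total counts, other filters, the replicate block, each library left out and other distances.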

Additional observations from a re-analysis of the deposited data

How the results depend on the processing

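The early genes kept their direction under each alternative in which they were tested. With no filter on low counts, 4 early genes were higher in place of 8, since EGR2 (3.24), NR4A1 (1.71), NR4A2 (0.71) and IER3 (1.32) no longer passed. The same setting gave 1 EGR relative or NAB gene higher, 1 heat shock gene higher, 0 RAS-ERK genes higher and 2 other early genes lower. NR4A2 did not pass with DESeq2 (0.73). With at least 10 counts in every library, EGR2 and EGR3 were not tested, the median over the early genes was 0.96, 3 SRF cofactors were higher and 1940 genes were called higher in place of 3032. With total counts only, 952 genes were called lower in place of 1535, 4 RAS-ERK genes were higher and 4 lower, 4 SRF cofactors were higher, 2 heat shock genes and 1 other early gene were lower, and 15 genes near early genes were higher. Total counts alone shifted the median over all genes from 0.048 to 0.26, so counts under that scaling cannot be set against the 28.0% and 27.6% of the reported fit. With DESeq2 size factors in edgeR, 2 CREB and CRTC genes were lower. Within 250 kb in place of 100 kb, 21 genes were higher and 29 lower of 80 tested. Counts divided by 2 moved no count by over 1.5 times, and EGR2 was then not tested. The cause of these moves was not tested, apart from the genes a filter removes.

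Same-numbered libraries did not deviate together (correlation of deviations -0.00753). With the replicate block, 2 SRF cofactors were higher in place of 1, and no count moved by over 1.5 times otherwise.

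Each library was left out in turn, with the lone library of its group assumed to vary like the other group. The early genes higher were then 5 to 8, and their median log2 fold change was 0.97 to 1.69. The number higher was 1 to 2 among the EGR relatives and NAB genes, 1 to 3 among heat shock genes, 1 to 2 among NR4A partners, 1 to 4 in the RAS-ERK cascade and 0 to 2 among SRF cofactors. The number lower was 0 to 2 among CREB and CRTC genes, 2 to 6 among heat shock genes, 5 to 11 in the RAS-ERK cascade, 4 to 7 among SRF cytoskeletal targets and 2 to 5 among other early genes. With 2 libraries a group, SDs rest on 2 values, and NR4A3, with at most 7 counts in a library, was below the filter. The planned comparison of protein sequences was not run.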
